A study of Mus musculus with 30 samples.

Results

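Follicular helper T cells (TFH cells) are CD4 T cells that help B cells in germinal centres, and 10 genes of less known role in them were followed: Cebpa, Nav2, Sostdc1, Angptl2, Smco4, Sbk2, Smtn, Pde3b, Izumo1r and Asb2. They were taken by symbol from 55573 gene identifiers in the QuantSeq tables and 34030 genes in the RNA-seq tables. All 10 were found in both assays, and all 10 passed the filter on low counts. The genes were chosen by measured values, their high levels in TFH cells against TH2 or naive cells of these libraries, so that contrast is described here and not tested.

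The 30 libraries came from splenic CD4 T cells, sorted from C57BL/6 mice aged 8 weeks. QuantSeq, which counts the 3' ends of transcripts, covered TFH cells of OTII mice (transgenic for 1 T cell receptor) at 3 surface levels of the chemokine receptor CXCR5, namely CXCR5hi (n = 3), CXCR5int (n = 2) and CXCR5lo (n = 3). The same gates were applied to IL-4BacTg x OTII mice, whose cells the labels call TFH2 (n = 2 per gate). The non-follicular groups were TH2 cells of IL-4BacTg x OTII mice (n = 4), Bcl6KO cells of Bcl6f/fCd4cre x OTII mice (n = 2) and Il4KO cells of Il4-/- x OTII mice (n = 2). Every QuantSeq group therefore carried OTII. TFH and TFH2 cells were gated on CD4, CD45.2 and PD1, TH2 and Bcl6KO cells on CD4 and hCD2, and Il4KO cells on CD4 alone. In RNA-seq, naive cells came from wild type mice and were gated as CD62L+ and negative for CD44 and CD25 (n = 2). The RNA-seq TH2 group was from IL-4BacTg animals without OTII (n = 2), and the TFH group was OTII and CXCR5hi (n = 2). A further 2 RNA-seq libraries of IL-4BacTg x OTII mice were labelled TH2 (n = 1) and TFH2 CXCR5hi (n = 1). TFH2 and TH2 cells of QuantSeq share their genotype and differ in cell type and gate. Between TFH cells and TH2 or naive cells genotype changes as well, and these cannot be told apart. The Cd4cre transgene deletes in every T cell that has expressed Cd4.

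TFH cells depend on the repressor BCL6, enter the follicle through CXCR5 and give B cells CD40 ligand, IL-21 and IL-4, while TH2 cells are built around GATA3 and secrete IL-4, IL-5 and IL-13. The 10 genes lie outside this core. Cebpa encodes a bZIP transcription factor best known from myeloid, liver and fat cells. Sostdc1 and Angptl2 encode secreted proteins, a BMP and Wnt modulator of the sclerostin family and an angiopoietin-like glycoprotein. Izumo1r encodes folate receptor 4, a surface protein of regulatory and anergic CD4 T cells that on the egg is the receptor for sperm IZUMO1, and Smco4 encodes a small single-pass membrane protein. Pde3b encodes a phosphodiesterase that degrades cyclic AMP, Sbk2 a putative serine/threonine kinase, and Asb2 the substrate receptor of a cullin-5 ubiquitin ligase and a known target of Notch. Nav2 encodes a neuron navigator that binds microtubules, and Smtn encodes smoothelin, an actin-binding protein of smooth muscle.

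QuantSeq libraries held 1.83 to 4.44 M counts (M is 10 to the power 6), so that 1 count was worth 0.225 to 0.545 counts per M (CPM). RNA-seq libraries held 36.1 to 107 M counts over all transcripts, where a read may be counted more than once. RNA-seq CPM were taken from a smaller total, that over the most-counted transcript of each gene. The TFH markers Cxcr5 and Pdcd1 followed the labels in QuantSeq, with Cxcr5 at 104 CPM in TFH CXCR5hi cells and 0 counts in TH2, Bcl6KO and Il4KO cells. Il21 did so too, except for 9.47 CPM in 1 Il4KO library. The 2 RNA-seq libraries without a replicate went against their labels. The library labelled TH2 held 135 CPM of Cxcr5, 121 of Bcl6 and 149 of Tox2. The library labelled TFH2 CXCR5hi held 1.12 CPM of Cxcr5, 13.1 of Bcl6 and 0.398 of Tox2. These 2 libraries are named by their labels only, and no direction rests on them. The labelled TH2 library also held macrophage transcripts, 56.7 CPM of Lyz2 and 49.3 of Csf1r, and the part of these in its levels below was not tested. By the Y-linked Ddx3y and by Xist the RNA-seq TFH libraries were male (83.9 and 0.32 CPM) and the naive and TH2 libraries female (Xist 577 and 1120 CPM), so sex and cell type cannot be told apart there.

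The 10 genes differed in how sharply they separated TFH cells from the rest. In Cebpa, Nav2, Sostdc1 and Izumo1r every one of the 14 TFH and TFH2 QuantSeq libraries lay above every one of the 8 TH2, Bcl6KO and Il4KO libraries. Of 14383 genes tested, 0.869% were arranged that way. Since the genes were picked for high TFH levels, nothing is read from this count. In the other 6 the ranges met, through low CXCR5lo libraries in Angptl2, Sbk2, Smtn, Smco4 and Asb2, and through the whole range in Pde3b. Fewer cells of a type and less RNA per cell cannot be told apart in such sorted bulk samples. Some transcripts of other cells also separated these libraries without overlap: Csf1r and C1qa of macrophages, Igkc of B cells and the globin gene Hbb-bs. Csf1r held 14.2 CPM or more in every TFH and TFH2 library and at most 0.39 in the others. The macrophage gene Lyz2 was not so arranged, with no count in TFH CXCR5lo cells. The part of such transcripts in this separation was not tested.

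**Figure D1:**
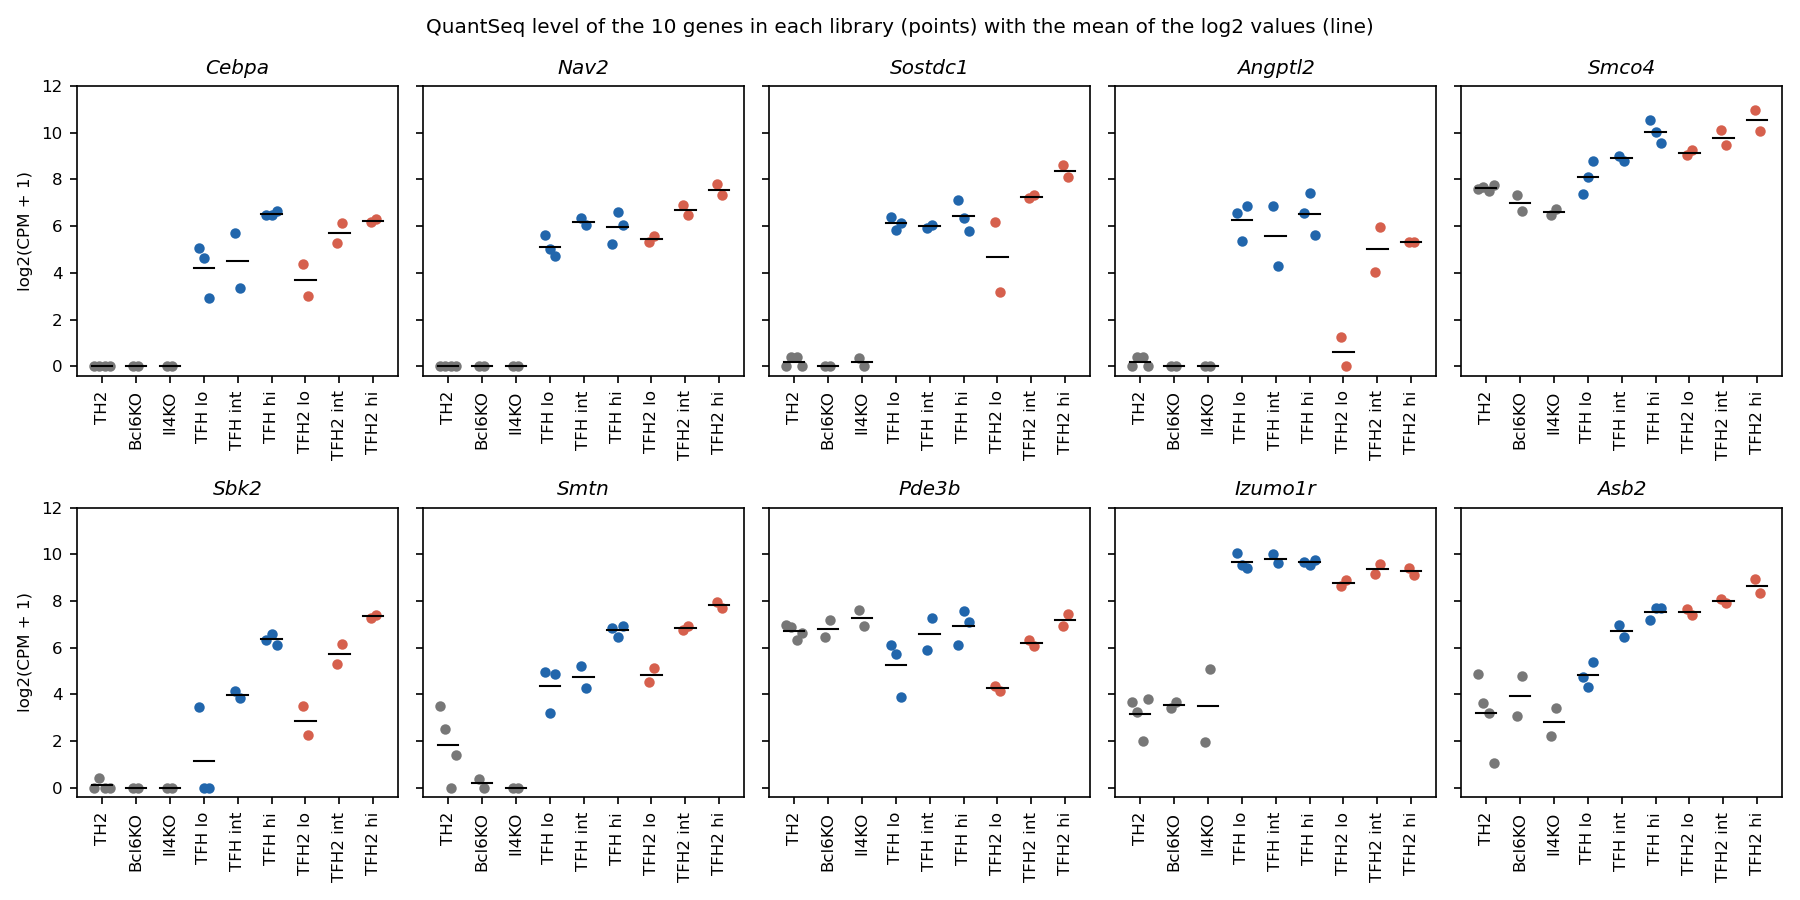
QuantSeq level of each gene as log2(CPM + 1), 1 point per library, with a line at the mean of the log2 values of each of the 9 groups. Cebpa and Nav2 sit at 0 in all 8 non-follicular libraries, most genes step up from the CXCR5lo to the CXCR5hi gate, and Pde3b is as high in the non-follicular libraries as in CXCR5hi cells.

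Cebpa (ENSMUSG00000034957.10, GRCm38 chr7:35119293-35121928) had 0 counts in all 8 TH2, Bcl6KO and Il4KO libraries, which allows at most 0.861 to 1.62 CPM per library (3 counts, counting error only). The 3 TFH CXCR5hi libraries held 87.5, 89.0 and 101 CPM. The CXCR5int libraries held 50.9 and 9.15 CPM, and the CXCR5lo libraries 32.9, 24.3 and 6.51. In TFH2 cells the levels were 71.9 and 77.3 in CXCR5hi, 37.6 and 69.8 in CXCR5int, and 20.1 and 7.09 in CXCR5lo. All CXCR5hi libraries thus lay above all CXCR5lo libraries of either genotype, and the TFH CXCR5hi mean of 92.4 ± 7.24 CPM (SD, n = 3) was at least 77.0-fold that of TH2 cells with 3 counts put in each library. In RNA-seq the 2 TFH libraries held 207 and 213 CPM, against 0.063 and 0.337 in naive cells and 0.268 and 0.0802 in TH2 cells. The library labelled TH2 held 41.4 CPM and the library labelled TFH2 CXCR5hi 0.239. Because Cebpa is a myeloid factor, myeloid transcripts were read beside it. Csf1r, the receptor for the macrophage growth factor, averaged 32.5 CPM in TFH CXCR5hi cells and 333 CPM in TFH2 CXCR5hi cells, where Cebpa averaged 92.4 and 74.6 CPM. In RNA-seq TFH cells Csf1r averaged 11.4 CPM, below its 14.2 CPM in naive cells, and the macrophage genes C1qa and Lyz2 averaged 0.356 and 0.151 CPM, where Cebpa averaged 210. The neutrophil receptor gene Csf3r and the granulocyte factor Cebpe had no count in any QuantSeq group. Csf1r and C1qa, however, averaged 32.5 and 50.5 CPM in QuantSeq TFH CXCR5hi cells and 0.182 each in TH2 cells. In QuantSeq the 20 macrophage and monocyte genes summed to 111 to 339 CPM in TFH CXCR5hi and 10.8 to 30.8 in TH2 libraries. Of them 15 and 8 had counts. The whole list of 20 macrophage and monocyte genes summed to 166 to 171 CPM in RNA-seq TFH libraries, 65.7 to 65.8 in naive and 105 to 115 in TH2 libraries. These sums include Cebpb, a gene of the same family as Cebpa. By itself Cebpb averaged 119 CPM in RNA-seq TFH cells, 29.7 in naive and 38.1 in TH2 cells, so it made up most of the RNA-seq TFH sum. In QuantSeq TFH CXCR5hi cells Cebpb averaged 6.30 CPM. The part of myeloid transcripts in the Cebpa levels was not tested.

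The secreted pair, Sostdc1 and Angptl2, shared near absence from TH2 cells, and of them Angptl2 but not Sostdc1 passed the test between TFH2 and TFH cells. Sostdc1 (ENSMUSG00000036169.6, chr12:36314139-36318452) held 3 counts in all 8 non-follicular libraries together. TFH CXCR5hi cells held 140, 81.5 and 53.8 CPM, CXCR5int cells 59.8 and 66.1, and CXCR5lo cells 83.0, 57.0 and 69.3, so the TFH gates overlapped. TFH2 gates did not overlap, with 389 and 275 CPM in CXCR5hi, 147 and 160 in CXCR5int and 70.8 and 8.18 in CXCR5lo libraries. RNA-seq showed 91.7 and 89.7 CPM in TFH cells, 5 counts in the naive pair and 0 in the TH2 pair. The library labelled TH2 held 53.7 CPM and the library labelled TFH2 CXCR5hi 0.

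Angptl2 (ENSMUSG00000004105.8, chr2:33216069-33247717) was lower in TFH2 than in TFH cells over the gates. TFH cells held 95.0, 169 and 48.1 CPM in CXCR5hi, 114 and 18.7 in CXCR5int and 93.7, 39.8 and 115 in CXCR5lo, with no order between the gates. TFH2 cells held 39.2 and 39.6 in CXCR5hi and 15.4 and 61.9 in CXCR5int. Their CXCR5lo libraries held 4 counts and 0 counts, against 869 counts in the 3 TFH CXCR5lo libraries. In RNA-seq the TFH libraries held 396 and 412 CPM, the naive libraries 1.67 and 1.07 and the TH2 libraries 1.97 and 2.77. The library labelled TH2 held 45.1 CPM.

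Izumo1r (ENSMUSG00000031933.17, chr9:14885814-14903949), on the cell surface, was high in every CXCR5 gate. Over the 14 TFH and TFH2 libraries it ran from 395 to 1057 CPM, with a median of 742, and over the 8 others from 2.87 to 33.3, with a median of 10.7. TFH CXCR5hi, CXCR5int and CXCR5lo cells averaged 805 ± 55.5 (SD, n = 3), 906 ± 162 (n = 2) and 822 ± 206 CPM (n = 3), which overlapped. In TFH2 cells it held 685 and 557, 572 and 775, and 395 and 473 CPM down the gates, with CXCR5lo below the others. It was also the only gene of the 10 besides Pde3b above 100 CPM in naive cells, at 116 and 109, and it was lower in RNA-seq TH2 cells, at 27.2 and 30.3. TFH cells held 688 and 655. The library labelled TH2 held 694 CPM, as much as TFH cells, and the library labelled TFH2 CXCR5hi held 21.7. Folr1 and Folr2, the classical folate receptors, were at or near 0 in every group, with at most 3.38 CPM of Folr2 in TFH CXCR5lo cells. Regulatory T cells also carry folate receptor 4. Their factor Foxp3 had no count in QuantSeq outside 1 TFH CXCR5int library (17.1 CPM) and averaged 3.51 CPM in RNA-seq TFH, 12.6 in TH2 and 59.4 in naive cells. The whole list of 10 regulatory T cell genes, several of them shared with activated T cells, went another way and summed to 1002 to 1005 CPM in RNA-seq TFH, 1306 to 1335 in TH2 and 198 to 201 in naive libraries. In QuantSeq it summed to 437 to 569 CPM in TFH CXCR5hi and 272 to 567 in TH2 libraries. Its part in the Izumo1r levels was not tested.

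Smco4 (ENSMUSG00000058173.12, chr9:15493432-15545260) was expressed everywhere and graded. TH2 libraries held 183 to 214 CPM, Bcl6KO libraries 161 and 99.2, and Il4KO libraries 89.6 and 106. TFH CXCR5hi libraries reached 1512, 1031 and 759 CPM and TFH2 CXCR5hi libraries 2024 and 1084, a mean 5.56 and 7.85 times that of TH2 cells. The TFH CXCR5lo libraries, at 167, 272 and 448 CPM, reached down into the TH2 range, while TFH2 CXCR5lo libraries stayed at 533 and 607. In RNA-seq the order was naive, TH2, TFH, with 8.91 and 10.0, then 47.3 and 46.0, then 117 and 119 CPM, and no neighbours overlapped.

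Among the enzymes, Pde3b (ENSMUSG00000030671.9, chr7:114415281-114539251) went against its place on the list, as it was no higher in TFH than in TH2 cells. TH2 libraries held 125, 118, 79.9 and 96.8 CPM and Il4KO libraries 193 and 122. TFH CXCR5hi libraries held 68.3, 188 and 134, which overlapped TH2 cells, and TFH CXCR5lo libraries held 68.8, 52.6 and 14.0, below all of them. RNA-seq levels were 141 and 135 CPM in naive, 176 and 168 in TH2 and 147 and 153 in TFH cells, a TFH mean 0.873 times that of TH2 cells. The highest RNA-seq value, 337 CPM, was in the library labelled TFH2 CXCR5hi.

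Sbk2 (ENSMUSG00000030433.15, chr7:4940512-4964406) was high in CXCR5hi cells and near 0 in several CXCR5lo libraries. TFH CXCR5hi libraries held 80.0, 96.1 and 68.7 CPM, CXCR5int libraries 16.6 and 13.3, and CXCR5lo libraries 10.1, 0 and 0. TFH2 libraries held 155 and 170, then 38.0 and 70.7, then 10.2 and 3.82 CPM down the gates. All 8 non-follicular libraries together held 1 count. In RNA-seq Sbk2 was low even in TFH cells, at 11.3 and 11.4 CPM, with 5 counts in the naive pair and 2 in the TH2 pair.

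Asb2 (ENSMUSG00000021200.14, chr12:103321142-103356001) stood above TH2 cells in the TFH CXCR5hi gate of QuantSeq but not in RNA-seq, and the QuantSeq TFH CXCR5lo libraries overlapped TH2 cells. The QuantSeq TH2 libraries held 28.5, 11.5, 8.29 and 1.08 CPM and TFH CXCR5hi libraries 144, 208 and 205. The RNA-seq TH2 libraries held 217 and 282 CPM, above the 185 and 183 of TFH cells, and the naive libraries held 0.346 and 0.365. The RNA-seq TH2 cells came from IL-4BacTg mice and the QuantSeq TH2 cells from IL-4BacTg x OTII mice. Kit and genotype therefore cannot be told apart here. Cul5, the cullin that ASB proteins dock on, averaged 21.3 CPM in RNA-seq TH2 and 31.6 in TFH cells. The Notch pathway genes did not share 1 direction: of 10 tested in RNA-seq TH2 against naive cells 3 rose (Hes1, Rbpj and Notch2) and 5 fell. Of all genes tested 33.9% rose and 31.9% fell, so nothing is read from these counts. The median log2 ratio of the 10 Notch pathway genes was -0.78, against 0 over all genes. Hes1, a Notch target, was at 52.2 CPM in TH2 cells, 3.76 in TFH cells and 0 in naive cells, while the Notch regulator Dtx1 was at 0.444, 154 and 296.

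The cytoskeletal genes were Nav2 and Smtn. Nav2 (ENSMUSG00000052512.17, chr7:48908716-49610090) had 0 counts in all 8 non-follicular QuantSeq libraries. It held 37.2, 95.5 and 66.0 CPM in TFH CXCR5hi, 80.8 and 64.4 in CXCR5int and 47.9, 32.0 and 25.4 in CXCR5lo libraries. TFH2 libraries held 225 and 159, then 121 and 88.2, then 39.4 and 47.4 CPM down the gates, without overlap. RNA-seq showed 442 and 448 CPM in TFH cells, 15.0 and 13.8 in naive cells and 4.56 and 7.21 in TH2 cells. Of its relatives, Nav1 averaged 35.1 CPM in RNA-seq TH2 cells and 1.04 in TFH cells, and Nav3 had no RNA-seq count in any library.

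Smtn (ENSMUSG00000020439.17, chr11:3517523-3540612) was highest in CXCR5hi cells within each genotype, and TFH2 CXCR5int libraries overlapped TFH CXCR5hi libraries. It held 115, 88.0 and 119 CPM in TFH CXCR5hi, 35.8 and 18.3 in CXCR5int and 29.9, 8.24 and 28.3 in CXCR5lo libraries. TFH2 libraries held 246 and 210, then 106 and 121, then 22.2 and 33.8. TH2 libraries held 10.5, 4.72, 0 and 1.62 CPM. Of 7 smooth muscle genes, Myh11 and Tagln had no count in any QuantSeq group, and the 7 summed to at most 25.3 CPM, all of it Acta2, in a TFH CXCR5hi library. In RNA-seq the 7 summed to 24.4 to 25.2 CPM in TFH and 20.7 to 21.1 in naive libraries. In RNA-seq Smtn stood at 0.913 and 0.702 CPM in naive, 36.7 and 46.9 in TH2 and 151 and 152 in TFH cells, without overlap. Of its 10 listed transcripts, Smtn-208 and Smtn-210 had the same total of 9729 counts, so reads appear to be counted on more than 1 transcript.

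**Figure D2:**
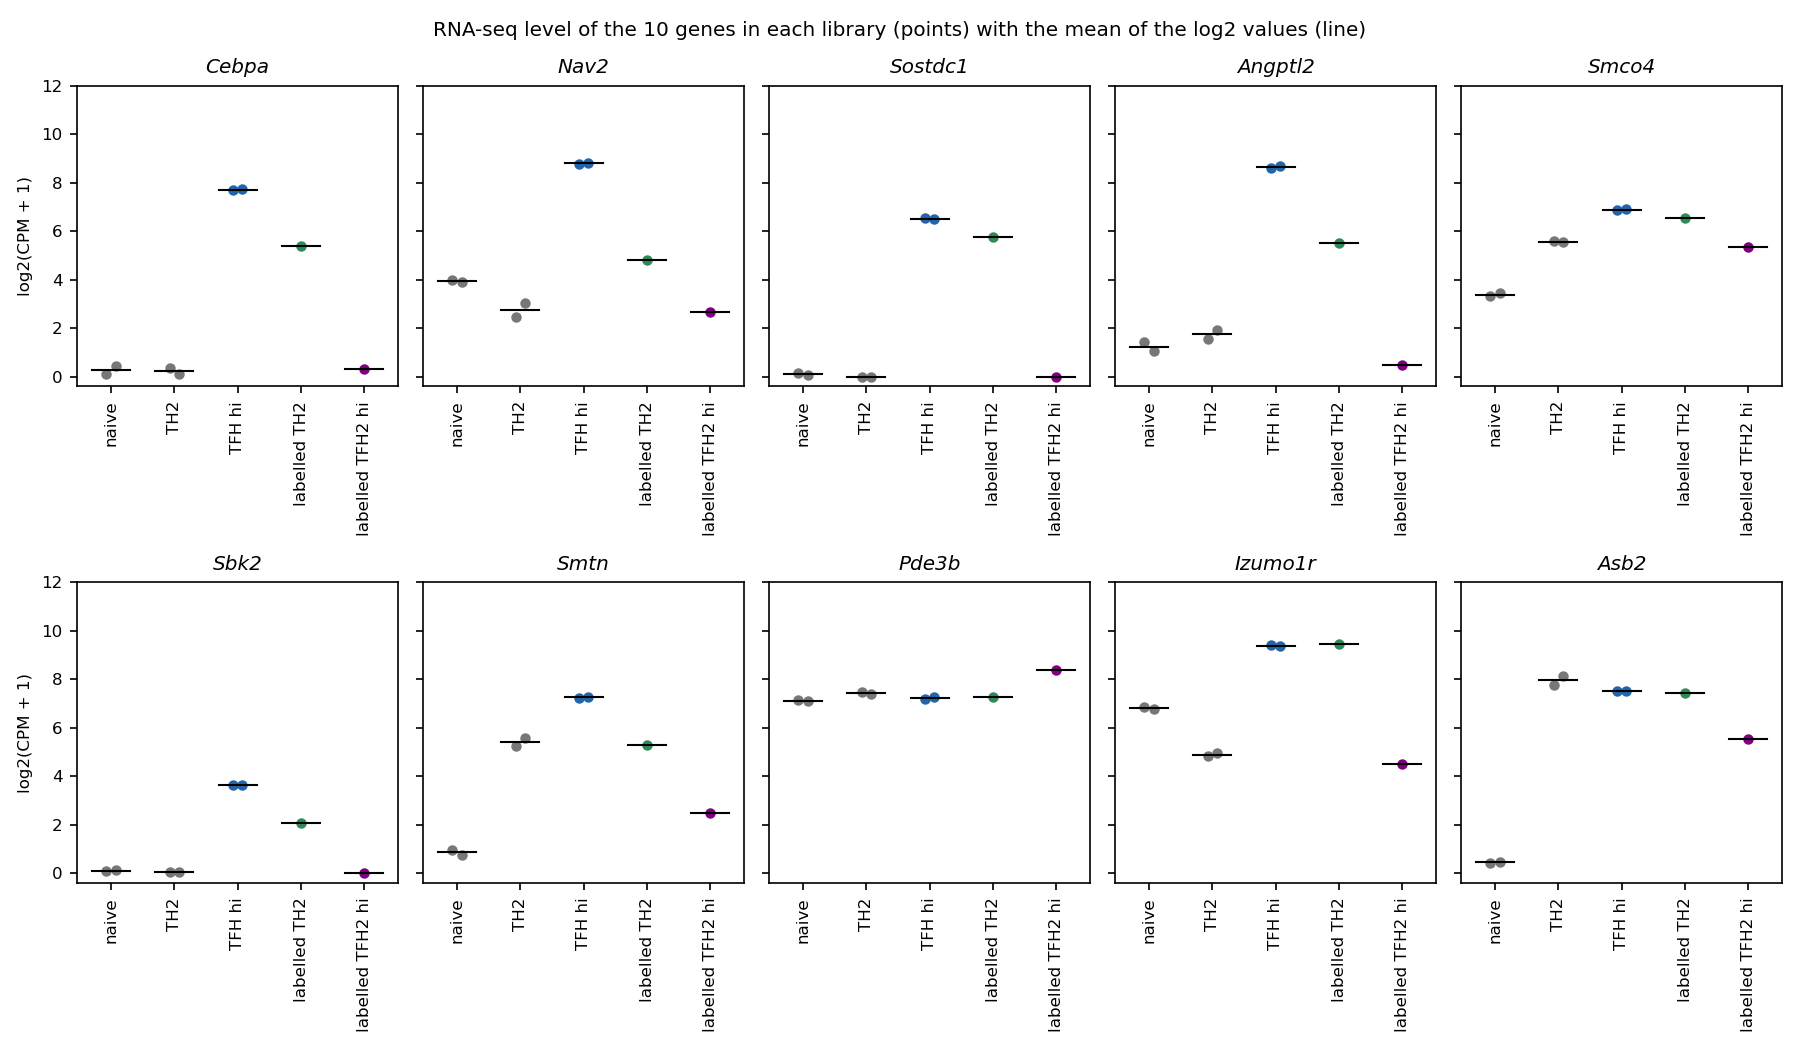
RNA-seq level of each gene as log2(CPM + 1), 1 point per library, with a line at the mean of the log2 values of each group. TFH cells lie above naive and TH2 cells in every panel but Pde3b and Asb2, and the library labelled TH2 lies nearer to TFH cells than the library labelled TFH2 CXCR5hi in all 10.

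Per length, Izumo1r was the most abundant of the 10 in RNA-seq TFH cells, at 520 CPM per kb of the transcript counted, followed by Smco4 at 124 and Angptl2 at 121. Asb2 and Cebpa stood at 80.6 and 80.0, Sostdc1 at 50.9, Smtn at 45.22, Nav2 at 39.3 and Pde3b at 22.8. Sbk2 was the lowest, at 9.95 CPM per kb. In TH2 cells the order was led by Asb2, at 109 CPM per kb, and in naive cells by Izumo1r, at 87.0.

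Within TFH cells, CXCR5hi cells held more Smco4 and Asb2 than CXCR5lo cells. Smco4 rose by 1.88 ± 0.29 on the log2 scale (SE, adjusted p = 1.39e-05, edgeR's quasi-likelihood test with Benjamini-Hochberg adjustment over 14383 genes). Asb2 rose by 2.697 ± 0.572 (edgeR adjusted p = 0.0173). Thus 2 of 10 genes were called, where 0.139% of all genes tested were called in either direction and 0.0278% as higher. The list had been chosen for high CXCR5hi levels, so this contrast is not independent of the choice. The CXCR5hi and CXCR5lo libraries did not overlap in Cebpa, Smco4, Sbk2, Smtn and Asb2, 5 genes, all higher in CXCR5hi, where 4.48% of all genes tested were. Sbk2, the steepest of them with 794 against 37 counts, had a log2 ratio of 4.60 ± 1.28 that missed the threshold (edgeR adjusted p = 0.172). Nav2, Sostdc1, Angptl2, Pde3b and Izumo1r overlapped between the gates. Of 20 genes of the TFH programme, 1 was called, Tox2, a factor of TFH differentiation, at 2.31 ± 0.46. Of 10 genes of naive and recirculating cells 4 fell (S1pr1, Klf2, Bach2 and Satb1). S1pr1, the exit receptor of lymphoid tissue, fell by 3.75 and its activator Klf2 fell by 1.57 on the log2 scale. The Asb2 call was lost without TFH CXCR5lo library 1 (adjusted p = 0.121), without CXCR5hi library 2 (0.0642) or without CXCR5lo library 2 (0.215), and the Smco4 call was lost when the fit held only these 2 groups (0.139). CXCR5int against CXCR5lo, which uses no CXCR5hi library, gave 0 calls by edgeR among the 10 and 0 among all 14383 genes, so it says nothing particular of the 10. At an unadjusted p under 0.05 were Smco4, Pde3b and Asb2, 3 of 10, and 3.56% of all genes.

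Within TFH2 cells CXCR5hi libraries lay above CXCR5lo libraries in all 10 genes, where 15.0% of all genes tested did, with 2 libraries in each group. CXCR5int libraries also lay above CXCR5lo libraries in all 10, where 15.1% of all genes did, against 3 of 10 in TFH cells, where 8.54% did. By the test, 2 genes were called, both higher, where 0.153% of all genes tested were called and 0.0487% as higher. This contrast too uses the CXCR5hi level that chose the genes. Transcripts of some other cells, though not of all, were ordered the same way in TFH2 cells by the mean of their sums. The 20 macrophage and monocyte genes summed to 1118 to 2196 CPM in CXCR5hi, 711 to 1225 in CXCR5int and 421 to 569 in CXCR5lo libraries (19, 18 and 16 genes with counts), with a median log2 ratio of 2.04 between CXCR5hi and CXCR5lo and none called. The 7 erythroid genes summed to 1177 to 1646, 786 to 1187 and 424 to 729 CPM, and B cell genes to 726 to 1209, 365 to 831 and 383 to 781. Stromal and follicular dendritic cell genes had mean sums of 27.1, 11.8 and 6.88 CPM down the gates. Platelet genes went the other way, at 19.2, 29.1 and 107 CPM. CD8 and NK cell genes were also highest in CXCR5lo, at 18.1, 12.7 and 53.9 CPM. Granulocyte and basophil genes had no such order, at 52.2, 69.4 and 37.6 CPM. The platelet list and the CD8 and NK cell list had higher mean sums in QuantSeq TH2 cells, 510 and 457 CPM. Whether these 2 lists mark other cells here was not tested, so nothing is read from their order. In TFH cells the macrophage sums were 111 to 339 CPM in CXCR5hi and 122 to 250 in CXCR5lo libraries. The part of these transcripts in the TFH2 gate differences was not tested. Pde3b rose by 3.06 ± 0.69 on the log2 scale (edgeR adjusted p = 0.0222), from 19.4 and 16.9 CPM in CXCR5lo to 121 and 173 in CXCR5hi cells. Smco4 rose by 1.51 ± 0.36 (edgeR adjusted p = 0.038). Sostdc1 had a log2 ratio of 3.10 ± 0.82 (edgeR adjusted p = 0.0948), and Angptl2 had 205 against 4 counts (0.0948). The median log2 ratio over the 10 genes was 2.77, against 0 over all genes, and that of the 20 TFH programme genes was 1.32 with none called. Both calls were lost when the fit held only these 2 groups (adjusted p = 0.338 for Pde3b and 0.471 for Smco4) and without either CXCR5lo library (0.0599 and 0.284 for Pde3b, 0.0745 and 0.112 for Smco4). Without CXCR5hi library 1 the Smco4 call was lost (1.0), without CXCR5hi library 2 the Pde3b call (0.135), and CXCR5int against CXCR5lo gave 0 calls by edgeR, where 0.00695% of all genes were called, and 6 genes at an unadjusted p under 0.05, where 2.88% of all genes were. Where leaving out a library left a gate with 1 library, that library was assumed to vary like the other groups.

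**Figure D3:**
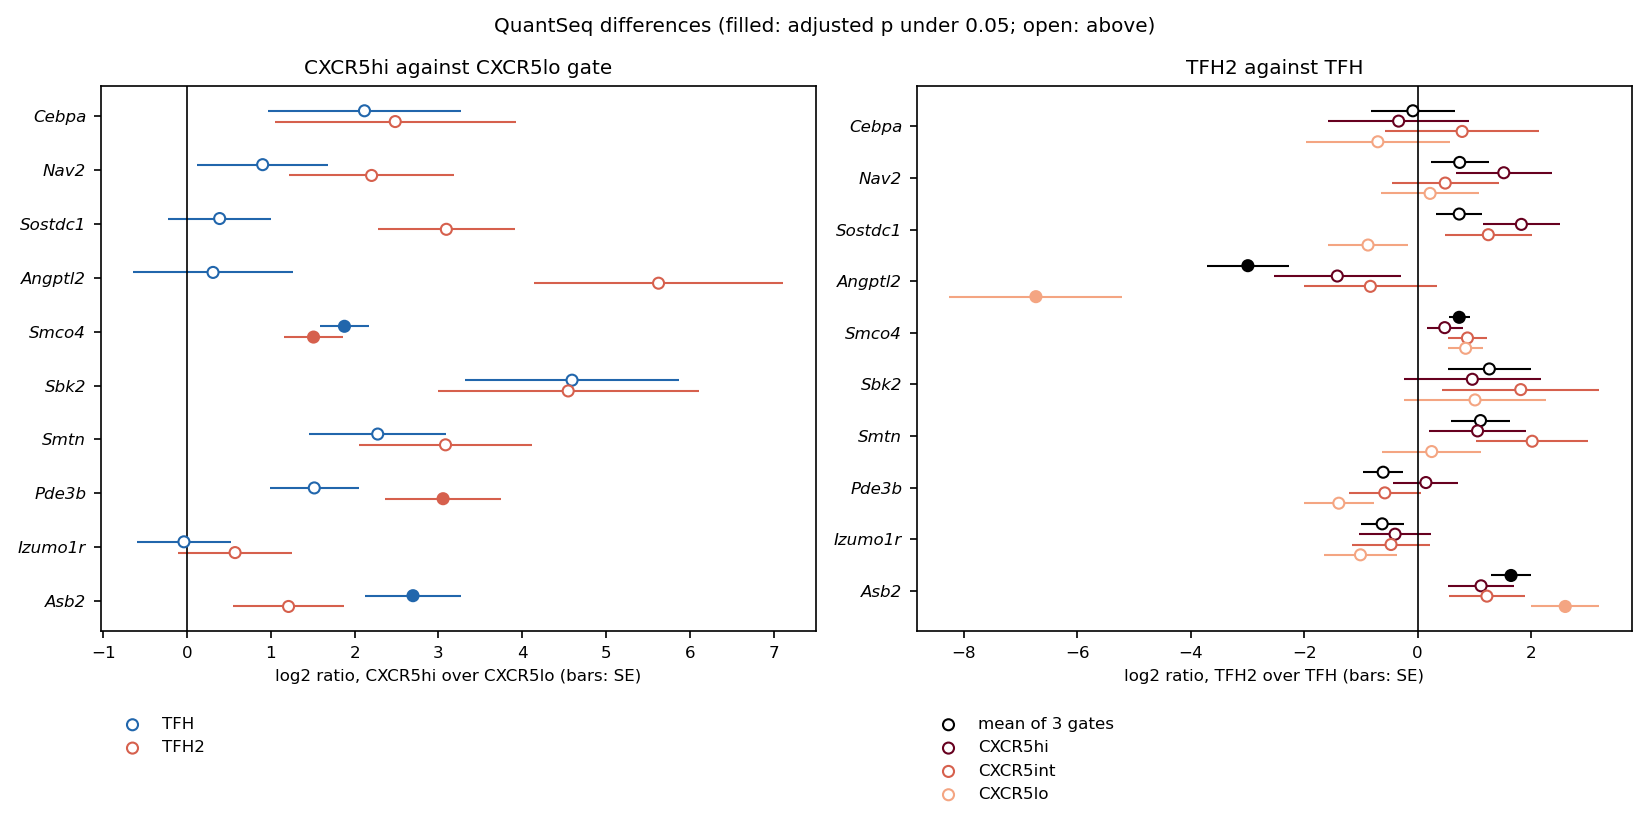
Log2 ratios ± SE of the 10 genes in QuantSeq, CXCR5hi over CXCR5lo in TFH and TFH2 cells (left) and TFH2 over TFH cells for the mean of 3 gates and each gate (right), with filled points at an adjusted p under 0.05. Smco4 is filled in both genotypes on the left, and Angptl2 lies far to the left of 0 in the CXCR5lo gate on the right.

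Whether the gradient differed between TFH2 and TFH cells was tested as a difference of the 2 gradients. None of the 10 genes was called by edgeR or by DESeq2, where 0.0139% of all genes tested were called. An unadjusted p under 0.05 was reached by 2 of 10, and by 5.47% of all genes. Angptl2, with counts of 205 against 4 in TFH2 and 968 against 869 in TFH cells, had the largest difference, 5.32 ± 1.70 on the log2 scale (edgeR adjusted p = 0.908). Sostdc1 followed with 2.71 ± 1.00 (edgeR adjusted p = 0.908), and without TFH2 CXCR5lo library 1, which held 70.8 CPM against 8.18 in its replicate, it was called (5.05, adjusted p = 0.0374). That fit has 1 TFH2 CXCR5lo library, whose spread is assumed from the other groups.

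Across the 3 gates weighted equally, TFH2 cells held more Asb2 and Smco4 and less Angptl2 than TFH cells. Asb2 rose by 1.65 ± 0.36 on the log2 scale (edgeR adjusted p = 0.0082), and its levels in TFH2 cells were 492 and 325, 268 and 241, and 198 and 168 CPM down the gates. The corresponding TFH levels were 144, 208 and 205, then 125 and 87.3, then 25.5, 19.2 and 40.4, so the 2 genotypes did not overlap within any gate. Smco4 rose by 0.74 ± 0.19 (edgeR adjusted p = 0.0331). Angptl2 fell by 2.99 ± 0.73 (edgeR adjusted p = 0.0168). With these, 3 of 10 genes were called, where 0.647% of all genes tested were, 0.327% as higher and 0.32% as lower. The genes were chosen for high levels in TFH cells, which this contrast uses, so the count is not independent of that choice.

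Each gate was also tested alone, and no member's gradient was called as different between the genotypes (above). The single gates too use the TFH levels that chose the genes. In the CXCR5lo gate Angptl2 (4 against 869 counts, log2 ratio -6.73 ± 1.53, edgeR adjusted p = 0.0209) and Asb2 (2.61 ± 0.60, adjusted p = 0.0479) were called, where 0.132% of all genes tested were, 0.0556% as higher and 0.0765% as lower. In the CXCR5hi gate none of the 10 was called by edgeR, where 0.0695% of all genes were, and 1 had an unadjusted p under 0.05, Sostdc1, where 4.69% of all genes did. In the CXCR5int gate none of the 10 and no other gene was called, and 2 had an unadjusted p under 0.05, Smco4 and Smtn, where 3.3% of all genes did. Without overlap, TFH2 lay above TFH cells in 5 of 10 genes in the CXCR5hi gate (10.1% of all genes), in 6 in the CXCR5int gate (16.2%) and in 2 in the CXCR5lo gate (9.80%). TFH2 lay below in 3 (6.86% of all genes), 1 (12.5%) and 2 genes (8.18%), and Izumo1r was among them in every gate. Over the 3 gates Izumo1r was not called. The Angptl2 call was lost without any of 7 of the 14 libraries (TFH2 CXCR5hi 1 and 2, CXCR5int 1 and CXCR5lo 2, TFH CXCR5hi 2, CXCR5int 1 and CXCR5lo 3, adjusted p 0.0534 to 0.209). The Smco4 call was also lost without any of 7 (TFH2 CXCR5hi 1 and CXCR5int 1, TFH CXCR5hi 2 and 3, CXCR5int 2 and CXCR5lo 1 and 2, adjusted p 0.0528 to 0.314). The Asb2 call held without each of the 14.

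Transcripts of other cells and of the Y chromosome moved with the same contrast. The Y-linked Ddx3y averaged 65.4 to 83.7 CPM in the TFH2 groups and had no count in the TFH groups, while Xist averaged 245 to 367 CPM in TFH and at most 16.6 in TFH2 groups. Sex and genotype therefore cannot be told apart here. Macrophage and monocyte genes summed to 1118 to 2196 CPM in TFH2 CXCR5hi libraries, with counts for 19 of 20 genes, against 111 to 339 CPM in TFH CXCR5hi libraries, with 15 of 20. In the CXCR5lo gate the sums were 421 to 569 and 122 to 250 CPM. C1qa, C1qc and Csf1r passed the test (log2 ratios of 2.07, 2.73 and 2.62), as did Igkc and H2-Aa of 10 B cell genes tested and the globin gene Hbb-bs. Over the 14 TFH and TFH2 libraries Csf1r correlated with Smtn at r = 0.72, Nav2 at 0.66, Asb2 at 0.62, Sbk2 at 0.53, Smco4 at 0.49 and Sostdc1 at 0.41. Its r was 0.26 with Cebpa, 0.18 with Pde3b, -0.18 with Angptl2 and -0.31 with Izumo1r. The part of these transcripts in the TFH2 differences was not tested. None of the families of the 10 genes added another call to the 3: of the other tested members of the C/EBP, neuron navigator, BMP antagonist, angiopoietin-like, SH3-binding kinase, phosphodiesterase and ASB lists, none passed.

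Loss of Bcl6 or Il4 was read against TH2 cells, where 5 of the genes had 2 counts or fewer in TH2 cells to begin with. A fall could not be called in these 5, and Cebpa and Nav2 had 0 counts in each group compared. TH2 cells also served as the low side when the genes were chosen, so neither comparison is independent of that choice. Bcl6 itself stood at 6.73 and 26.4 CPM in the 2 Bcl6KO libraries and from 0.39 to 13.2 in TH2 libraries, and the labels do not say whether the counted 3' end lies in the deleted part, so it does not check the deletion. Il4 stood at 0 and 0.98 CPM in the Il4KO libraries and from 0 to 13.3 in TH2 libraries, which were too low to check that label. None of the 10 was called in Bcl6KO cells by edgeR or DESeq2, where 0.0209% of all genes tested were called, and 2 had an unadjusted p under 0.05, where 5.82% of all genes did. These were Smtn, with 1 against 44 counts and overlapping ranges, and Smco4, at 161 and 99.2 CPM against 183 to 214 (log2 ratio -0.63 ± 0.31, edgeR adjusted p = 0.847). None was called in Il4KO cells by edgeR, where 0.0695% of all genes were, and the same 2 genes had an unadjusted p under 0.05, where 5.34% of all genes did. Smtn held 0 counts against 44 (edgeR adjusted p = 0.0885) and was called by DESeq2 (0.0376) and without the filter on low counts (0.0197). Of these 44 counts, TH2 libraries 1 and 2 held 27 and 14 and libraries 3 and 4 held 0 and 3, so the ranges overlapped. Smtn was called also without TH2 library 3 (0.00993) or 4 (0.0158), which are the TH2 libraries with the fewest Smtn counts. Without Il4KO library 1, which held 2.87 CPM of Izumo1r against 33.3 in its replicate, Izumo1r was called (log2 ratio 1.97, adjusted p = 0.000174). Without Il4KO library 2 its log2 ratio was -1.55 (0.439). Each of these fits has 1 Il4KO library, whose spread is assumed from the other groups. Of 20 TFH programme genes 1 was called in Il4KO cells, Il21, with 33 counts against 0 in TH2 cells (edgeR adjusted p = 0.00738). It stood at 9.47 CPM in 1 Il4KO library and at 0 in the other. The Il4KO cells were sorted without the hCD2 gate of the TH2 cells, so gate and genotype cannot be told apart. The Il4KO libraries were male by Ddx3y (68.6 and 76.9 CPM), the Bcl6KO libraries had no Ddx3y count, and the TH2 libraries ran from 0 to 97.5.

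TH2 cells and naive cells were compared in RNA-seq. They differ in genotype (IL-4BacTg and wild type) and gate as well as in cell type, and both served as the low side when the genes were chosen, so the comparison is not independent of that choice. Asb2 rose by 9.45 ± 0.19 on the log2 scale (edgeR adjusted p = 1.25e-11), Smtn by 5.71 ± 0.16 (1.13e-10) and Smco4 by 2.31 ± 0.09 (9.34e-10) from naive to TH2 cells. Izumo1r fell by 1.95 ± 0.09 (5.44e-09) and Nav2 fell by 1.27 ± 0.15 (2.65e-05). Angptl2 and Pde3b rose by 0.83 ± 0.23 (0.00846) and 0.33 ± 0.07 (0.00204). In all, 5 rose, where 33.9% of all genes did, and 3 fell, where 31.9% did, the last being Sostdc1 with 0 against 5 counts (adjusted p = 0.0341), and Cebpa and Sbk2 were not called. Of all 17013 genes tested, 65.8% were called, so 8 of 10 is near the background. Without the 2 libraries that went against their labels 8 genes were again called. The Angptl2 call was lost without naive library 2 (adjusted p = 0.095) or TH2 library 2 (0.11), and the Sostdc1 call without naive library 1 or either TH2 library (0.106 to 0.123).

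The 10 genes did not form 1 block within TFH cells. Over the 14 TFH and TFH2 QuantSeq libraries, Pearson's r of log2(CPM + 1) was highest between Sbk2 and Smtn (0.89), Smco4 and Asb2 (0.86), Smco4 and Smtn (0.82) and Cebpa and Sbk2 (0.81). Angptl2 and Izumo1r formed a pair of their own (0.79) and were near 0 or negative with Asb2 (-0.22 and -0.38) and Smco4 (0.02 and -0.27). Cxcr5 itself correlated with Sbk2 at 0.78, Smtn at 0.78, Smco4 at 0.75 and Asb2 at 0.70, with Angptl2 at 0.08 and with Izumo1r at -0.19. These values describe 14 libraries that share gates, genotypes and depth and carry no test.

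**Figure D4:**
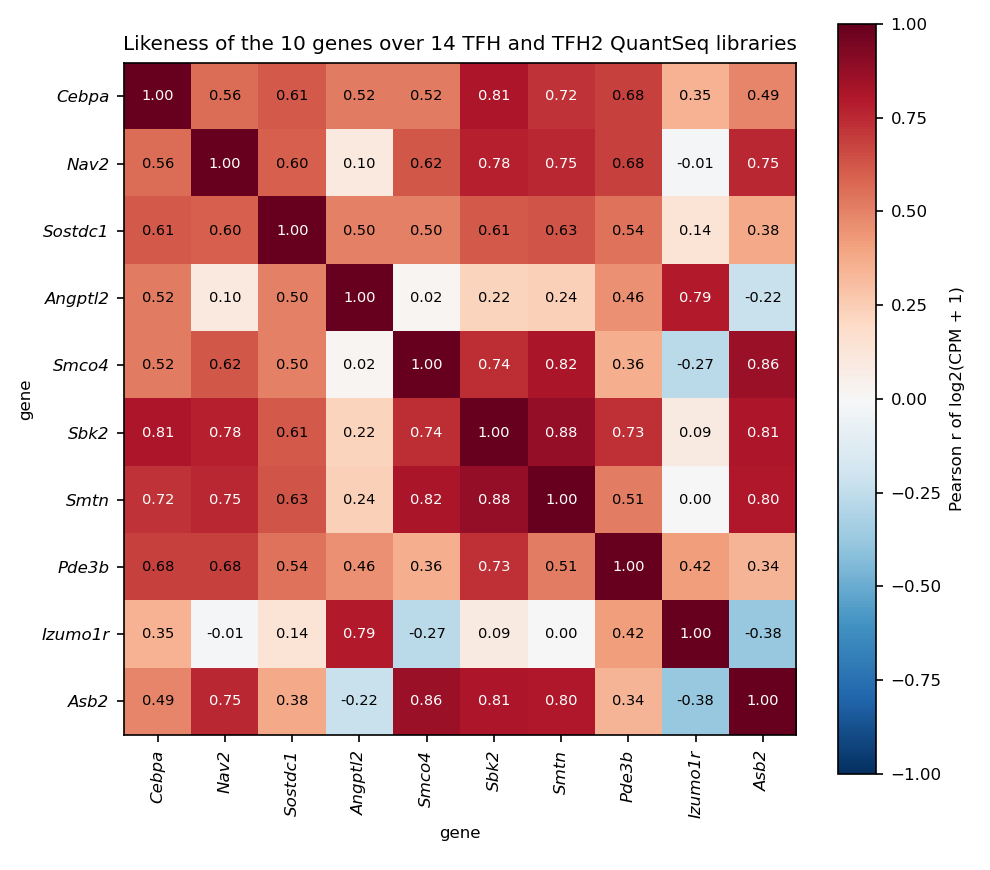
Pearson's r of log2(CPM + 1) for each pair of the 10 genes over 14 TFH and TFH2 QuantSeq libraries, coloured from -1 to 1. Sbk2, Smtn, Smco4 and Asb2 form a red block, and Angptl2 with Izumo1r stands apart from it.

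Outside and inside the list, the 3 genes with the highest r to each were found among all genes tested, over all 22 QuantSeq libraries, where the difference between TFH and other cells sets most of r, and over the 14 TFH and TFH2 libraries. The nearest come first. Cebpa had H2-Q2, Fam43a and Tox2 (r from 0.96 to 0.97) nearest over 22 libraries and Sh2d1a and Fez2 (r = 0.92 and 0.90) over 14. Tox2 is a factor of TFH differentiation, and Sh2d1a encodes the SLAM adaptor that TFH cells need for contact with B cells. For Nav2 they were Art2a-ps, Tox2 and Cd160 (r from 0.98 to 0.99) over 22 libraries and Fam71b, Dynll2 and Ube2v2 (r from 0.84 to 0.87) over 14. Cd160 encodes a receptor of T and NK cells. Next to Sostdc1 stood Art2a-ps, Nav2 and Cd160 (r from 0.97 to 0.98) over 22 libraries and Atp13a2, Ctsb and Dusp1 (r from 0.88 to 0.91) over 14. Angptl2 had Wdr26, Gm14718 and 2310001H17Rik (r from 0.90 to 0.93) nearest over 22 libraries and Atg14, Ikzf2 and Adprh (r from 0.89 to 0.90) over 14. For Smco4 they were Smtn, Maf and Top1 (r from 0.91 to 0.92) over 22 libraries and Sec62, A130071D04Rik and Baz2a (r from 0.90 to 0.94) over 14. Maf is a factor of IL-4 and IL-21 expression. Next to Sbk2 stood Armcx2, Cebpa and Smtn (r from 0.89 to 0.91) over 22 libraries and P2rx7, Mapre2 and Smtn (r from 0.89 to 0.90) over 14. Smtn had Cxcr5, Cd160 and Smco4 (each r = 0.92) nearest over 22 libraries and Casz1, Cd52 and Sbk2 (r from 0.89 to 0.92) over 14. For Pde3b they were Tbc1d23, Gm6794 and Gm7290 (r from 0.72 to 0.75) over 22 libraries and Parp10, Tox and Tspan5 (r from 0.83 to 0.84) over 14. Next to Izumo1r stood Dtx1, H2-Q2 and Synpo (r from 0.95 to 0.96) over 22 libraries and Ifi209, Pacsin1 and Rsad2 (r from 0.88 to 0.92) over 14. Dtx1 is a Notch regulator raised in anergic T cells, and Ifi209 and Rsad2 are induced by interferon. Asb2 had Cd82, Stx11 and Smtn (r from 0.89 to 0.91) nearest over 22 libraries and Cd52, Plekhg3 and Smco4 (r from 0.86 to 0.91) over 14. Pde3b thus had the lowest r to its neighbours over 22 libraries.

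Sbk2, Smtn and Asb2 were the 3 genes most alike over these 14 libraries (mean r = 0.83), and their promoters are shown because they moved together. Of the 10 genes, 8 had a promoter in the RefSeq table (GRCm38.p6), which gives 250 bases before and 50 after each start. Each was searched on both strands for 8 motifs: the E-boxes CAGCTG and CAGGTG, the AP-1 motif TGANTCA, the NFAT core GGAAAA, the TCF motif CTTTGA, the STAT motif TTCNNNGAA, TGGGAA as read by RBPJ of the Notch pathway, and the C/EBP half-site pattern TTGCNNAA. Matches are in capitals, and every sequence is written 5' to 3' on the gene's strand.
Sbk2, chr7:4964357-4964656, minus strand: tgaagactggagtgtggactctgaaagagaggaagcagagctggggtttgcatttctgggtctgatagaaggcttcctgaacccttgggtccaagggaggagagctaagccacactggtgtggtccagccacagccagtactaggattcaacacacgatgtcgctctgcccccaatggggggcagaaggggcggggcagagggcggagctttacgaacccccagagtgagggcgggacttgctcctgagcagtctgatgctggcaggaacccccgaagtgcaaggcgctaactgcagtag
Smtn, chr11:3539243-3539542, minus strand: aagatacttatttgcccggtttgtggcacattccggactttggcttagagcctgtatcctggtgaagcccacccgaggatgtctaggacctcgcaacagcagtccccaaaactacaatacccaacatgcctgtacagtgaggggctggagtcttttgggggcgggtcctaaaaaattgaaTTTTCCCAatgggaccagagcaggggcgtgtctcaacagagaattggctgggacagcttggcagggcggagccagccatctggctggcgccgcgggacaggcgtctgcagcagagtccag
Asb2, upstream start, chr12:103355952-103356251, minus strand: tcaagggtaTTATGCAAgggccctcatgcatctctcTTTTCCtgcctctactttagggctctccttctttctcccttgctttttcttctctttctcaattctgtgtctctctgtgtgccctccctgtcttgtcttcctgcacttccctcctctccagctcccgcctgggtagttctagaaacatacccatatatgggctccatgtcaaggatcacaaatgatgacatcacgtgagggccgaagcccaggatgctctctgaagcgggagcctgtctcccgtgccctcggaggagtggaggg
Asb2, downstream start, chr12:103338341-103338640, minus strand: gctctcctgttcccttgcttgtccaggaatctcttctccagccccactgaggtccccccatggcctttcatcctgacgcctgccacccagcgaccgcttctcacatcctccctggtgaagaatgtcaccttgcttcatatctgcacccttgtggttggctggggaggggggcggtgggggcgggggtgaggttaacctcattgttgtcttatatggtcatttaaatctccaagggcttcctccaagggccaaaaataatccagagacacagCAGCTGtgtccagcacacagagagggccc
The Sbk2 window held none of the 8 motifs. In Smtn, GGAAAA and TGGGAA matched overlapping letters of the reverse strand, 70 and 68 bases before the start. The upstream Asb2 window held GGAAAA 214 and TTGCNNAA 241 bases before the start, and the downstream window held CAGCTG 21 bases after the RefSeq start. That start lies near, but not at, the start of Asb2-204, the transcript with the most counts, which the annotation puts at 103338373. No motif was thus found in all 3 genes. Of 32851 promoters of the same length, 23.4% held GGAAAA, 25.6% TGGGAA, 10.8% TTGCNNAA and 16.3% CAGCTG. The others were held by 20.2% (CAGGTG), 7.8% (TGANTCA), 16.0% (CTTTGA) and 8.3% (TTCNNNGAA). A match describes letters in these windows and is no site of binding.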

How the data were processed

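Sorted CD4 T cells were measured in 22 QuantSeq and 8 RNA-seq libraries, grouped by kit, genotype and gate in their labels. Per the submitters' processing notes, the tools included featureCounts 1.6.0, STAR 2.7.0c and Bowtie 0.12.2, with builds mm9, mm10 and GRCm38.p6. Their match to the files was not given in the sources read. The deposited values are whole counts, per gene for QuantSeq and per transcript for RNA-seq. Gene names and coordinates came from GENCODE M21 (GRCm38). Of 95883 RNA-seq transcripts, 82946 were named, and the others, with 14.66% of counts, were left out. Each RNA-seq gene took the values of its most-counted transcript over all libraries, since sums over transcripts were 2.517 times as large and may hold a read more than once.

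CPM divide a gene's count by the library's total over genes. The kits were never fitted together. The tests used edgeR 4.0.16 and R 4.3.3 (TMM factors, filterByExpr with minimum count 10 and minimum total 15, robust quasi-likelihood fit, 2-sided test) in 7 comparisons, with adjustment over 14383 QuantSeq or 17013 RNA-seq genes and calls at an adjusted p under 0.05. The QuantSeq fit had 13 residual degrees of freedom and the RNA-seq fit 3, with coefficients of biological variation of 1.26 and 0.0879. Each SE of a log2 ratio was derived from the test, as the absolute log2 ratio divided by the square root of its F statistic. Alternatives were DESeq2 1.42.0, its size factors, no filter, fits of the compared groups alone, single gates, summed transcripts and each library left out. The functions were tested on simulated data.

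Replicate pairs differed by a chi-square per degree of freedom of 38.4 to 79.5 in QuantSeq and 2.73 to 28.0 in RNA-seq, so none was counted as 1 sample. The labels name no animal, batch or replicate number, so the p values rest on variation between libraries that may be technical only. The 10 genes, the gene lists and the motifs were chosen with earlier results of these data known. All 10 genes are named, with the 3 most similar genes of each, except 1 that is not reported here, and listed genes by count. No protein sequence was used here.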

Additional observations from a re-analysis of the deposited data

Results flagged for a closer look

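In the QuantSeq TH2 libraries Sbk2 was at 0 in 3 libraries and at 0.337 CPM in the other, which is 1 count and lies far from the rest only on that scale. About 1 in 20 groups of this kind is marked by chance.

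The 2 RNA-seq libraries that entered no comparison of the report held several of the genes above every naive and TH2 library. The library labelled TH2 held 41.4 CPM of Cebpa, 27.5 of Nav2, 53.7 of Sostdc1, 45.1 of Angptl2, 93.1 of Smco4, 3.25 of Sbk2 and 694 of Izumo1r. The library labelled TFH2 CXCR5hi held 337 CPM of Pde3b.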

How the results depend on the processing

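No called log2 ratio changed sign under any alternative that gave a value. The number of the 10 genes called moved as follows. For TFH CXCR5hi against CXCR5lo, with 2 calls, the fit of the 2 groups alone gave 1 and CXCR5int against CXCR5lo 0, and leaving out each library gave 1 to 2. For TFH2 CXCR5hi against CXCR5lo, with 2 calls, DESeq2 gave 5 (Nav2, Sostdc1, Angptl2, Smco4 and Pde3b, with 126 of all genes called), the 2 groups alone 0, CXCR5int against CXCR5lo 0, and leaving out each library 0 to 1. For TFH2 against TFH, with 3 calls, the CXCR5hi gate alone gave 0 and the CXCR5int gate alone 0, and leaving out each library 1 to 3. The difference of gradients, with 0, gave 0 to 1, and Il4KO against TH2, with 0, gave 1 without the filter, 1 by DESeq2 and 0 to 1 with a library left out. Bcl6KO against TH2 stayed at 0 throughout. RNA-seq TH2 against naive, with 8, stayed between 6 and 8. The causes were not tested. A group left with 1 library was assumed to vary like the other groups. The fits without CXCR5int libraries and without the 2 RNA-seq libraries labelled against their content were chosen after seeing the data. Summing transcripts moved 1 of 16 RNA-seq ratios of TFH to naive or TH2 levels beyond the spread, Smco4 over TH2, from a log2 of 1.34 to 1.27. No paired analysis was possible because the labels give the groups no shared replicate numbers, only a running number over all samples. QuantSeq depth limits the reading of 0 counts to about 1 CPM per library.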
